A study of Homo sapiens with 12 samples.

Results

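The genes described here are 39 interferon-stimulated genes, measured by bulk RNA sequencing in alpha cells made from human stem cells and kept with or without tunicamycin. They were taken by gene symbol from the count table, and all 39 are among its 28278 symbols. The list was chosen by its proposers with results of the tunicamycin comparison in these same libraries known. Member values in that comparison are therefore given as a description, without p-values, and the tests in what follows concern the sequencing batches and genes outside the list, whose lists were also drawn up with results known. Of the 39 members, 35 held enough counts to be among the 17137 genes tested. OAS2, OASL, IFI27 and XAF1 did not, and their read counts are given one library at a time.

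All samples derive from HUES-8, a widely used line of human embryonic stem cells, and so share a single genetic background. They had been differentiated toward pancreatic alpha cells, the islet cells that secrete glucagon, by a published protocol, and were then held for 48 h in 30 mL bioreactors stirred at 40 rpm. In the control group of 6 samples the medium held the solvent DMSO, and in the treated group of 6 it held 5 µM tunicamycin, which blocks N-linked glycosylation and so loads the endoplasmic reticulum with unfolded protein. Samples numbered 1 to 3 of each group belong to sequencing batch 1 and those numbered 4 to 6 to batch 2. The labels call the samples biological replicates but do not say whether they came from separate differentiations, so a p-value here speaks of the spread among these samples and of no wider one.

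Libraries held 17523442 to 28872269 counts assigned to genes, and the groups overlapped in depth. The 10 alpha cell markers, glucagon among them, summed to 80743 to 119903 CPM (counts per 1000000 counts of a library) in DMSO and 59945 to 95945 CPM in tunicamycin, so the markers of the labelled cell type were abundant in every sample. All 10 listed targets of the unfolded protein response passed the test in the upward direction, and their sum went from 944 to 1488 CPM in DMSO to 5108 to 8645 CPM in tunicamycin. In bulk RNA, fewer cells of a type and less RNA per cell cannot be told apart, and that holds for every level given here.

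Interferons are secreted proteins that warn tissue of viral infection. Type I interferons (such as interferon beta) and type III interferons (the interferon lambdas) bind different receptors, but both activate the kinases JAK1 and TYK2, which phosphorylate STAT proteins, STAT2 among them. These join IRF9 in a complex called ISGF3, which binds a DNA motif called the interferon-stimulated response element and switches on a broad set of antiviral genes. Pancreatic islet cells are known to carry this machinery, and interferon signatures in islets have been studied for their link to type 1 diabetes.

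The DNA motif is shown first, because it is read from the genome and not from expression values. Genes switched on by interferon are known for this motif, so the shares below describe the list and test nothing. RefSeq start sites and the 250 bases upstream of them (build GRCh38.p14) were found for 30 of the 39 members. The motif was searched on both strands as GAAA, any 2 bases and GAAA again, and matches were allowed to overlap. It lay in the window of 20 of the 30 members, or 66.7%, against 3.71% of 27305 genes. The gamma-activated site, bound by pairs of STAT proteins and searched as TTCNNNGAA, lay in 10 of 30 windows, or 33.3%, against 8.09% of genes. A match to letters is not a measured binding site.

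Motifs of the endoplasmic reticulum stress response were searched in the same windows. The ER stress response element, searched as CCAAT, any 9 bases and CCACG, was in none of the 30 windows and in 0.0916% of genes. TGATGNAA, the element bound by CHOP and ATF4, was in 2 of 30 windows, those of IFIT3 and MX1, or 6.67% against 3.89% of genes. The windows of OAS1 and IRF9 held no match to the interferon motif as searched, with 2 bases between, and each held a gamma-activated site match. The OAS1 window did hold gaaacgaaa, with 1 base between, a spacing that was not searched. Absence of a match is therefore not absence of an element.

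The windows of 6 members are printed 5′ to 3′ on the strand of the gene, with matches to the interferon motif, on either strand, in capitals. MX1, IFIT1 and IFI6 are shown because they passed the test upward in the tunicamycin comparison with the largest changes among members that hold a match. IFITM1, IFIT3 and BST2 are shown because, of the other members with a match in their window, their levels varied most among the DMSO samples. MX1 is at chr21:41431800-41432049 on the plus strand, IFIT1 at chr10:89392373-89392622 on the plus strand and IFI6 at chr1:27672193-27672442 on the minus strand. IFITM1 is at chr11:313790-314039 on the plus strand, IFIT3 at chr10:89327747-89327996 on the plus strand and BST2 at chr19:17405631-17405880 on the minus strand.
MX1: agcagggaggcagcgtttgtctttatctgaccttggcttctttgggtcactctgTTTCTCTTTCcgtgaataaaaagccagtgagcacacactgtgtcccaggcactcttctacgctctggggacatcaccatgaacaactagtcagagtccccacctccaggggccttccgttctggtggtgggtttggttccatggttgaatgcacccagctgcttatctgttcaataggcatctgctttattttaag
IFIT1: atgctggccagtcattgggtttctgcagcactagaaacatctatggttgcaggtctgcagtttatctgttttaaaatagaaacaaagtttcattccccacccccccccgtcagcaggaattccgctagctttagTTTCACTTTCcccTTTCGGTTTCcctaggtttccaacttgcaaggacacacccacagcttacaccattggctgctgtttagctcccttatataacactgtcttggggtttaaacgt
IFI6: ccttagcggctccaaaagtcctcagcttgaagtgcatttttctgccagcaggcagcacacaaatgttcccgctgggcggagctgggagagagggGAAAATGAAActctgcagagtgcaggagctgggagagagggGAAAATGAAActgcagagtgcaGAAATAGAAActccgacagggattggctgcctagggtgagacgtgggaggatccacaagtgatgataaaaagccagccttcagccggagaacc
IFITM1: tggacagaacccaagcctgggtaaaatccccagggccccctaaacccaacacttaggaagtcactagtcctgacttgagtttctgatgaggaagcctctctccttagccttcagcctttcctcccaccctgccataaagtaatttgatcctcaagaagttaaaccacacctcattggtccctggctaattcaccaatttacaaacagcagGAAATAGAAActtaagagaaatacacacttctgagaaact
IFIT3: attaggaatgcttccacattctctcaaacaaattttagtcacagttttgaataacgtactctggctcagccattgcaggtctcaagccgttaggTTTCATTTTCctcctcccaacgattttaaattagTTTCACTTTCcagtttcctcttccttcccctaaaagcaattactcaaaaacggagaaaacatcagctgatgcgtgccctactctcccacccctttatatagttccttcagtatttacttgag
BST2: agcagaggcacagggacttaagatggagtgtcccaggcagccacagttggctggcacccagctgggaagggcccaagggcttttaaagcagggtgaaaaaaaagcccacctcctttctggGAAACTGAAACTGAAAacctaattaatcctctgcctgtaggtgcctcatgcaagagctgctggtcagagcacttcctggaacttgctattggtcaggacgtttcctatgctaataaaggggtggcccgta

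The matches sit at different distances from the start site. The MX1 match begins 196 bases upstream, at the RefSeq start with the most matches for this gene. Another MX1 window, chr21:41425989-41426238, held tttcgtttc and tttcatttc, with 1 base between, a spacing that was not searched. Which stretch acts in these cells was not tested. In IFIT1 a pair of matches begins 116 and 103 bases upstream. IFI6 holds 3 matches, which begin 156, 115 and 93 bases upstream, and the first and second have the same 10 letters. In BST2 the matches begin 130 and 124 bases upstream and overlap, so that they form 1 run of 16 capitals. The IFITM1 match begins 40 bases upstream, the nearest to a start among the 6.

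Many members are neighbours in the genome. With a gap of at most 200 kb allowed, 22 of the 39 fall into 9 clusters (GENCODE v29, GRCh38). The IFIT cluster lies at chr10:89283694-89421001 and holds IFIT2, IFIT3, IFIT1 and IFIT5. The OAS cluster lies at chr12:112906777-113011723 and holds OAS1, OAS3 and OAS2, while MX2 and MX1 share chr21:41361943-41459214 and the IFITM genes share chr11:307631-327537.

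Levels before treatment spanned a wide range. On the scale of CPM per kilobase of exon, which allows genes to be compared, IFI6 was the most abundant member in DMSO at 55.7 ± 8.17 (SD, n = 6). STAT2 followed at 18.8 ± 3.78, USP18 at 17.4 ± 2.81, IFITM3 at 16.8 ± 7.76 and IFIH1 at 8.44 ± 3.71. IFI6 stood clear of the rest, while STAT2, USP18 and IFITM3 lay within their spread of each other. IFI27 was lowest, at 0.0157 per kilobase. On the plain CPM scale, 11 tested members averaged over 20 CPM in DMSO and 4 averaged under 1 CPM.

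**Figure D1:**
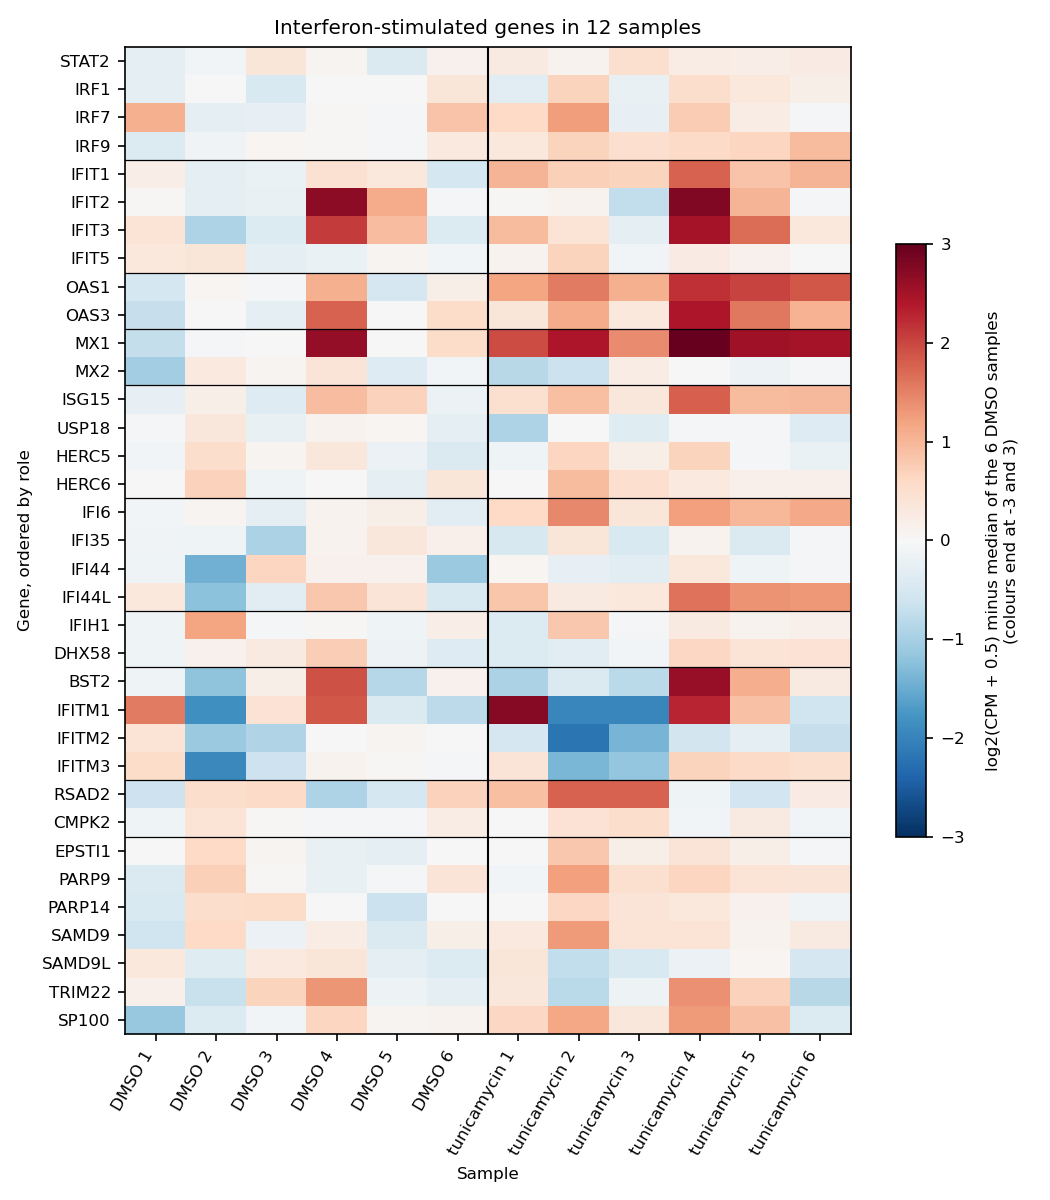
Level of each member in each of the 12 samples, as log2(CPM + 0.5) minus the median of the 6 DMSO samples, with colours that end at -3 and 3, genes ordered by role and samples by group and number. The samples numbered 4 of both groups are above that median for much of the list, among them MX1, OAS3, IFIT2 and BST2, while IRF9, IFIT1, OAS1 and IFI6 separate the groups.

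Under tunicamycin, 5 members were called higher and none lower by edgeR's quasi-likelihood test with batch in the model: MX1, OAS1, IFIT1, IFI6 and IRF9. Among all 17137 genes, 4.56% were called higher and 3.29% lower at the same adjusted p threshold of 0.05. Nothing is read from the members' count, since the list was made with this comparison known. The other 30 tested members did not pass. At an unadjusted p below 0.05, 10 of the 35 were higher and 0 lower, against 10.8% and 11.2% of all genes. DESeq2 called 8 higher and 0 lower, against 6.38% and 5.88% of all genes. The log2 fold change was above 0 for 27 tested members and below 0 for 8, with a median of 0.23, while over all genes 48.3% were above 0 and the median was -0.01. The members' median was 0.27 within batch 1 and 0.32 within batch 2.

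Markers of other cell types moved with the treatment as well. The sum of 12 leukocyte markers was 29.7 to 44.4 CPM in DMSO and 19.5 to 31.7 CPM in tunicamycin, with 1 of 5 tested markers lower and none higher. Of the 8454 reads of this list, CD68 held 4940 and LYZ held 2391. LYZ was the marker called lower, at a log2 change of -2.20 ± 0.26, while CD68 did not pass, at -0.39 ± 0.19. CD3E and MS4A1, which mark T and B lymphocytes, had 2 and 4 reads over all libraries, and PTPRC, which marks all leukocytes, had 50. The sum of 9 endothelial markers was 11.5 to 85.2 CPM in DMSO and 4.64 to 32.0 CPM in tunicamycin, with 2 of 8 tested markers lower, and 3 of 6 liver markers were lower. None of the 10 mesenchymal or 6 heart muscle markers was called in the fit with batch, while the fit with the replicate block called 8 mesenchymal markers and 1 heart muscle marker, ACTC1, lower. That fit also called 4 endothelial markers lower and 1 higher, and 4 liver markers lower. Of all genes, 3.29% were called lower and 4.56% higher in the fit with batch, and 8.40% and 8.92% in that with the block. The part of these cells in the members' values was not tested.

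The replicate numbers were taken to pair the samples, on the data alone, and a fit with the number as a block called more members. Within batches, same-numbered samples correlated at only 0.127, 0.194 and 0.18 for numbers 4, 5 and 6, so the pairing is less sure in batch 2. The following counts are from the fit with the block. That fit called 11 higher, adding OAS3, ISG15, IFI44L, STAT2, PARP9 and SAMD9, and 1 lower, IFITM2. The background of that fit was larger as well, with 8.92% of all genes called higher and 8.40% lower. In the 6 same-numbered pairs, 11 tested members were higher with tunicamycin in every pair and 2, USP18 and IFITM2, were lower in every pair, against 10.7% and 10.4% of all genes. Groups did not overlap for 4 members, IRF9, IFIT1, OAS1 and IFI6, against 3.77% of all genes.

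**Figure D2:**
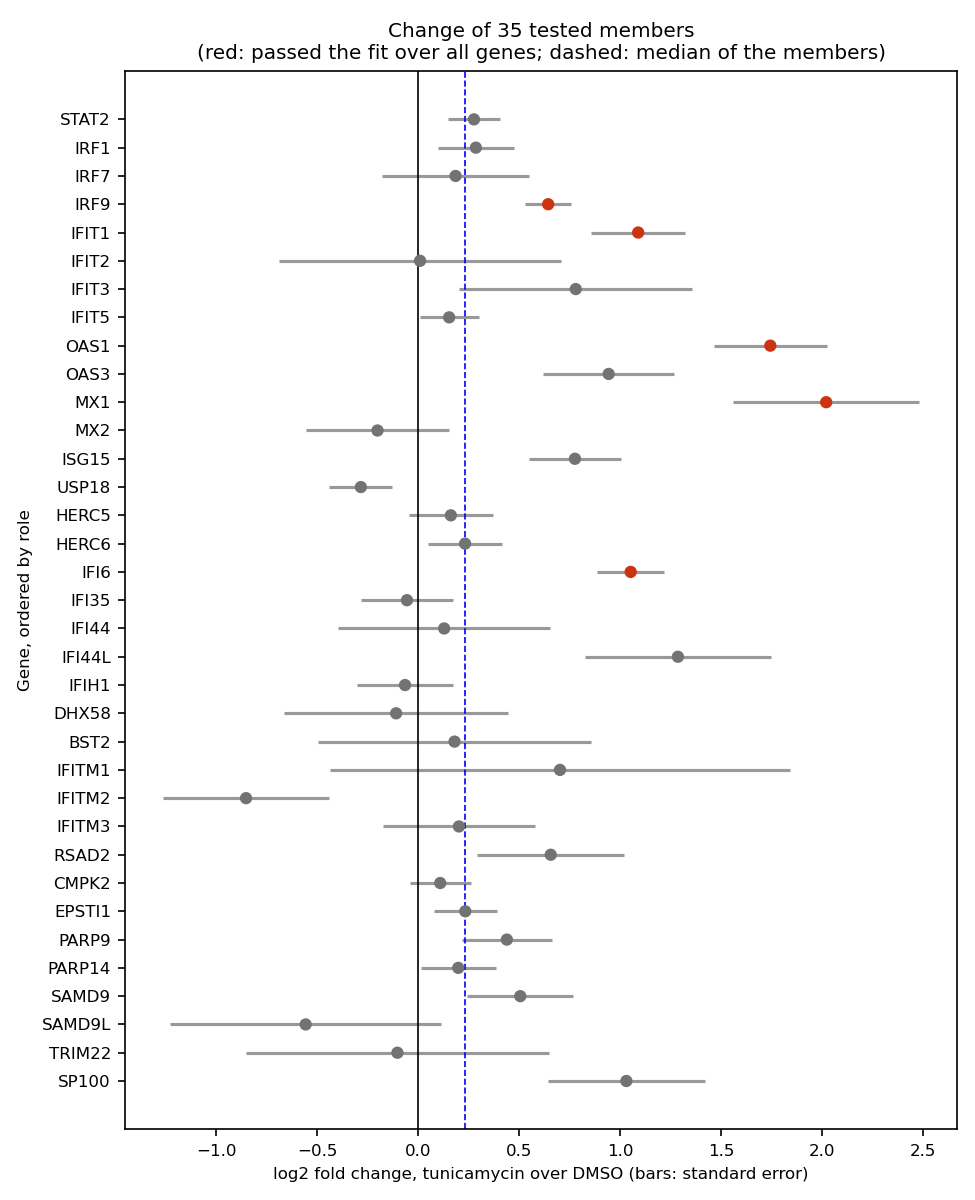
Log2 fold change of tunicamycin over DMSO for the 35 tested members, ordered by role, with bars for the standard error and red for the members that passed the test over all genes. MX1 is at 2.02, OAS1 at 1.74, IFIT1 at 1.09, IFI6 at 1.05 and IRF9 at 0.64, and IFITM1 has the widest bar, with a standard error of 1.14.

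The transcription factors of the interferon response come first. Whether they drive the other members in these cells was not tested. IRF9, the DNA-binding subunit of ISGF3 (chr14:24161053-24166565, plus strand), ranged from 23.2 CPM through a median of 31.1 to 38.4 in DMSO and from 38.8 through 47.9 to 60.5 in tunicamycin. Every treated sample lay above every control, and the sample numbered 6 was highest in each group. The change was 1.56-fold, or 0.64 ± 0.11 on the log2 scale (SE), with 0.65 in batch 1 and 0.63 in batch 2. GENCODE v29 places AL136295.5 on the same strand over IRF9, with all of the 50-base stretches of IRF9 shared. That symbol is not in the count table, and how reads of the overlap were assigned is not known.

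STAT2, the subunit of ISGF3 that carries its activation domain, was by CPM the most abundant of the 4 factors. It ran from 85.7 through a median of 116 to 150 CPM in DMSO and from 124 through 137 to 163 CPM in tunicamycin. The groups overlapped, the sample numbered 3 was highest in each, and tunicamycin was higher in 6 of 6 pairs. The log2 change of 0.28 ± 0.13 passed only with the replicate block. IRF1, a factor induced by interferon gamma and other signals, averaged 9.35 ± 1.95 CPM in DMSO and 11.4 ± 3.14 in tunicamycin, and IRF7, which amplifies type I interferon production, averaged 3.11 ± 1.57 and 3.58 ± 1.61. Neither passed, with log2 changes of 0.29 ± 0.19 and 0.18 ± 0.36.

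The MX proteins are GTPases that trap viral nucleocapsids, and MX1 had the largest change of any tested member. MX1 (chr21:41420304-41459214, plus strand) ran from 1.17 through a median of 2.26 to 16.7 CPM in DMSO and from 6.82 through 14.6 to 37.7 CPM in tunicamycin. Both maxima belong to the samples numbered 4, whose nearest neighbours stood at 3.56 CPM among controls and 15.6 CPM among treated samples. The control numbered 4 was thus above 5 of the 6 treated samples, while the other 5 controls lay below every treated one. The fold was 4.06, or 2.02 ± 0.46 on the log2 scale, with 2.48 in batch 1 and 1.60 in batch 2, and the treated sample was higher in 6 of 6 pairs.

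The log2 change of MX1 did not pass in every alternative. It was 1.83 without the treated sample numbered 4 and did not pass, and it did not pass without a batch term, also at 1.83. Without both samples numbered 4 it was 2.45 and passed. MX2, the neighbour of MX1 and a restriction factor of retroviruses, averaged 1.78 ± 0.716 CPM in DMSO and 1.55 ± 0.540 CPM in tunicamycin, a log2 change of -0.20 ± 0.35 that did not pass.

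The OAS enzymes make 2′,5′-linked oligoadenylates, which activate the RNA-degrading enzyme RNase L. OAS1 (chr12:112906777-112933222, plus strand) ran from 1.27 through a median of 2.07 to 4.89 CPM in DMSO and from 4.90 through 7.97 to 11.3 CPM in tunicamycin. The groups met but did not overlap, since the control numbered 4 at 4.89 lay just under the treated sample numbered 3 at 4.90. The change was 3.35-fold, or 1.74 ± 0.28 on the log2 scale, with 1.68 in batch 1 and 1.81 in batch 2.

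OAS3 (chr12:112938352-112973249, plus strand) makes longer oligoadenylates and repeated the MX1 picture at a smaller size. It ran from 2.74 through a median of 4.78 to 17.4 CPM in DMSO and from 6.03 through 10.7 to 28.0 CPM in tunicamycin, with both maxima in the samples numbered 4. The treated sample was higher in 6 of 6 pairs, and the groups overlapped through the controls numbered 4 and 6. Its log2 change of 0.94 ± 0.32 did not pass, and it passed at 0.98 with the replicate block and at 1.06 without both samples numbered 4.

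OAS2 and OASL fell under the count filter. OAS2, the third OAS enzyme of the same cluster, had 0 reads in all 6 samples of batch 1, which allows up to 3 counts per library, or 0.103 to 0.158 CPM. In batch 2 the DMSO samples numbered 4, 5 and 6 held 120, 4 and 4 reads and the tunicamycin samples held 145, 42 and 2. The samples numbered 4 therefore held 265 of its 317 reads. OASL, an OAS relative without the synthase activity, had 29 reads in all, 20 of them in the samples numbered 4 and none in batch 1.

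The IFIT proteins bind viral RNA and block its translation, and the 4 family members did not move alike. IFIT1 (chr10:89392546-89406486, plus strand), which binds RNA caps that lack 2′-O-methylation, ran from 2.64 through a median of 4.08 to 5.72 CPM in DMSO and from 6.70 through 8.17 to 14.9 CPM in tunicamycin. The groups did not overlap, and the sample numbered 4 was highest in each. The change was 2.13-fold, or 1.09 ± 0.23 on the log2 scale, with 0.97 in batch 1 and 1.21 in batch 2.

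IFIT2 (chr10:89283694-89309276, plus strand) showed no such shift. It ran from 0.296 through a median of 0.460 to 5.67 CPM in DMSO and from 0.0753 through 0.509 to 6.05 CPM in tunicamycin, for a log2 change of 0.01 ± 0.70. The groups overlapped over almost their whole range, and the samples numbered 4 and then 5 were highest in each. IFIT3, which stabilises IFIT1 on RNA, ran from 0.222 through 0.933 to 5.38 CPM in DMSO and from 0.640 through 1.74 to 7.20 CPM in tunicamycin, again with the samples numbered 4 on top. It was higher with tunicamycin in 6 of 6 pairs, with a log2 change of 0.78 ± 0.58 that did not pass. IFIT5, by CPM the most abundant of the family, averaged 25.3 ± 4.82 CPM without and 28.1 ± 5.78 CPM with tunicamycin and did not pass, at 0.15 ± 0.15.

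ISG15 is a ubiquitin-like protein, HERC5 is its main ligase, HERC6 is a relative of that ligase, and USP18 removes ISG15 and also dampens signalling at the type I receptor. ISG15 ran from 4.16 through a median of 5.59 to 11.05 CPM in DMSO and from 7.12 through 11.1 to 20.5 CPM in tunicamycin, with the samples numbered 4 highest in each and tunicamycin higher in 6 of 6 pairs. Its log2 change of 0.78 ± 0.23 did not pass, and passed with the replicate block at 0.79. USP18 ran the other way, from 30.4 through 37.0 to 46.8 CPM in DMSO and from 19.3 through 32.0 to 36.6 CPM in tunicamycin, with the sample numbered 2 highest in each group. The treated sample was lower in 6 of 6 pairs, the groups overlapped, and the log2 change of -0.28 ± 0.16 did not pass. USP18 shares 23.4% of its 50-base stretches with USP41, so its reads could be split between these genes. HERC5 and HERC6 had log2 changes of 0.16 ± 0.21 and 0.23 ± 0.18, which did not pass.

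Among the IFI genes, named only for their induction by interferon, IFI6 was both the most abundant and the clearest. IFI6 (chr1:27666061-27672218, minus strand), a small hydrophobic protein of the endoplasmic reticulum and mitochondria, ran from 39.6 through a median of 49.6 to 56.2 CPM in DMSO and from 64.3 through 104 to 136 CPM in tunicamycin. The groups did not overlap, and the treated sample numbered 2 was highest. The change was 2.07-fold, or 1.05 ± 0.17 on the log2 scale, with 0.97 in batch 1 and 1.13 in batch 2. The IFI6 controls were the tightest of the called members relative to their level, at 48.1 ± 7.06 CPM, and the sample numbered 4 did not stand apart.

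The other IFI genes did not pass. IFI44L averaged 0.902 ± 0.640 CPM in the controls and 2.26 ± 1.03 CPM in tunicamycin and was higher in 6 of 6 pairs, with a log2 change of 1.29 ± 0.46 that passed only with the replicate block, at 1.49, and in DESeq2. Its neighbour IFI44 had a log2 change of 0.13 ± 0.53, and IFI35, whose product binds other interferon-induced proteins, had -0.06 ± 0.23. IFI27, a mitochondrial protein often among the strongest interferon responses in blood, had 57 reads in all, with 7 in the control and 41 in the treated sample numbered 4.

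Neither RNA sensor of the list passed. IFIH1 encodes MDA5, which detects long double-stranded RNA. It ran from 32.5 through a median of 35.6 to 81.3 CPM in DMSO and from 26.8 through 38.8 to 62.8 CPM in tunicamycin, a log2 change of -0.07 ± 0.24. The sample numbered 2 was highest in each group, and the groups overlapped almost completely. DHX58, a sensor relative that lacks signalling domains, averaged under 1 CPM and had a log2 change of -0.11 ± 0.55. It had 91 reads in all, and the change was -1.14 in batch 1 and 0.71 in batch 2, too imprecise to place it near its control level.

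The membrane restriction factors varied more between samples than between groups. BST2, which tethers budding virions, ran from 0.222 through a median of 1.17 to 5.77 CPM in DMSO and from 0.368 through 1.12 to 9.69 CPM in tunicamycin, with the samples numbered 4 highest in each and a log2 change of 0.18 ± 0.68. The IFITM proteins block fusion of viral and cell membranes. IFITM3 ran from 6.22 through 25.0 to 37.0 CPM in DMSO and from 9.39 through 34.0 to 40.3 CPM in tunicamycin, with the sample numbered 2 lowest in each and the groups overlapping. Its log2 change was 0.20 ± 0.38.

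IFITM1 spanned from 0.0370 to 6.49 CPM within DMSO and from 0 to 12.3 CPM within tunicamycin. Its log2 change was 0.70 ± 1.14, the largest standard error among the tested members. IFITM2 averaged 2.83 ± 1.24 CPM in the controls and 1.62 ± 0.840 CPM in tunicamycin and was lower in 6 of 6 pairs. Its log2 change of -0.85 ± 0.41 passed only with the replicate block, at -0.88. IFITM1 shares 42.3% of its 50-base stretches with IFITM2, and IFITM3 shares 20.3%, so the counting could have split reads among the 3 genes.

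RSAD2 encodes viperin, which makes a chain-terminating nucleotide from CTP, and CMPK2, its head-to-head neighbour, phosphorylates nucleotides in mitochondria. RSAD2 had a sample pattern of its own. It ran from 4.41 through a median of 9.39 to 14.4 CPM in DMSO and from 5.71 through 13.6 to 31.2 CPM in tunicamycin, with the treated samples numbered 2 and 3 highest and the control numbered 4 lowest. The log2 change of 0.66 ± 0.36 did not pass; it was 1.32 in batch 1 and -0.04 in batch 2. Without the DMSO sample numbered 6 the value was 1.03 and passed. CMPK2 had a log2 change of 0.11 ± 0.15.

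None of the 7 tested genes among the other effectors passed. PARP9 and PARP14 are ADP-ribosyltransferase family members, and PARP9 averaged 31.0 ± 9.57 CPM in DMSO and 42.1 ± 13.4 CPM in tunicamycin, with a log2 change of 0.44 ± 0.22 that passed with the replicate block. PARP14 was at 0.20 ± 0.19. SAMD9, a restriction factor of poxviruses, was higher in 6 of 6 pairs at 0.51 ± 0.26 and passed with the block at 0.53, while its neighbour SAMD9L was at -0.56 ± 0.67 with both means under 1 CPM.

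SP100, a scaffold of nuclear bodies, averaged 1.76 ± 0.850 CPM in DMSO and 3.39 ± 1.44 CPM in tunicamycin, a log2 change of 1.03 ± 0.39 that did not pass, and that passed at 1.27 without the treated sample numbered 6. EPSTI1 was at 0.23 ± 0.16 and TRIM22, a ubiquitin ligase, at -0.10 ± 0.75. XAF1, a promoter of apoptosis, had 57 reads in all, 31 of them in the samples numbered 4.

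**Figure D3:**
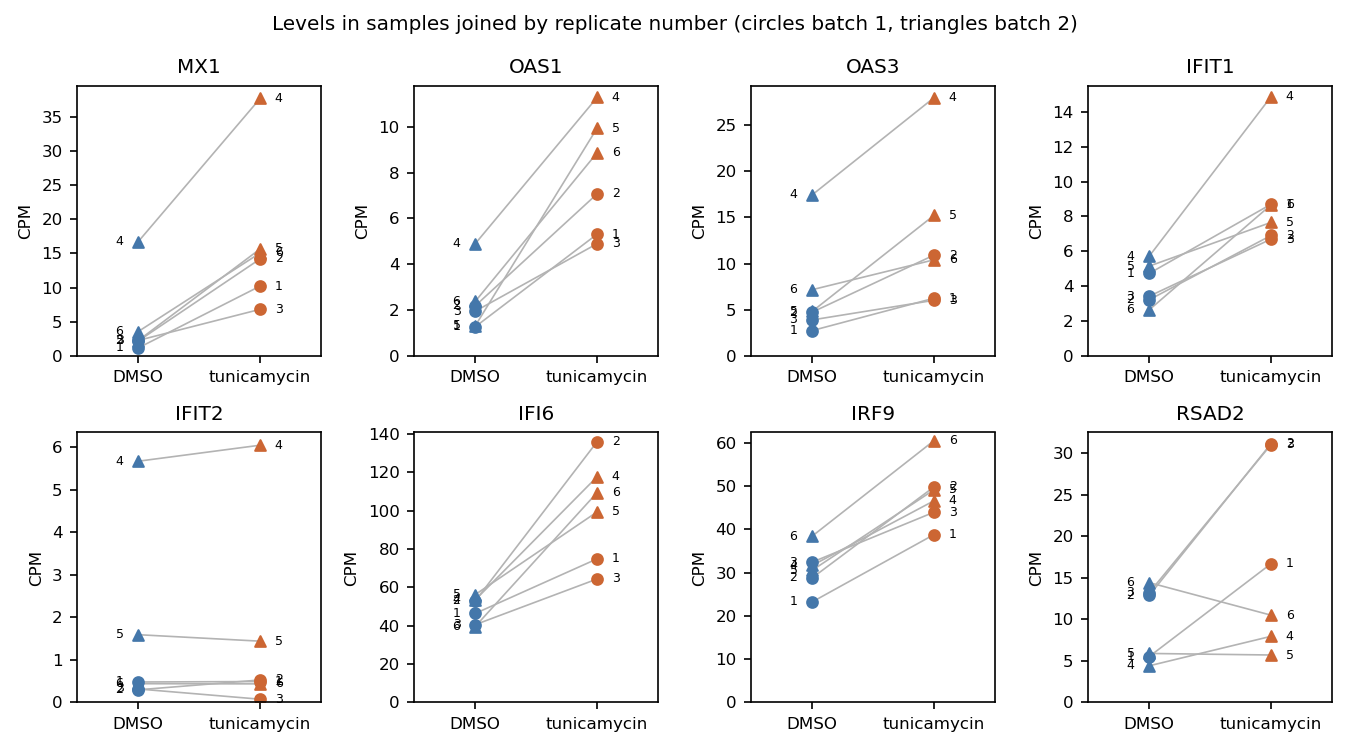
CPM of MX1, OAS1, OAS3, IFIT1, IFIT2, IFI6, IRF9 and RSAD2 in DMSO and tunicamycin, with lines joining samples of the same number, circles for batch 1 and triangles for batch 2. All 6 lines climb for MX1, OAS1, OAS3, IFIT1, IFI6 and IRF9, the samples numbered 4 are highest for MX1, OAS1, OAS3, IFIT1 and IFIT2, and the RSAD2 lines do not share a direction.

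The samples numbered 4 stood out for part of the list, and the rule for the list did not use differences between samples of a group. Summed over all 39 members, the DMSO sample numbered 4 was at 594 CPM, under the 626 CPM of that numbered 2. The tunicamycin sample numbered 4 was at 839 CPM, and that numbered 2 at 835 CPM. Each library was compared with the median of the other 5 of its group, after adding 0.5 CPM. In the DMSO sample numbered 4, 10 of 35 tested members, or 28.6%, were at least 2-fold above that median, against 1.16% of all genes: BST2, IFI44L, IFIT2, IFIT3, IFITM1, ISG15, MX1, OAS1, OAS3 and TRIM22. In the tunicamycin sample numbered 4 there were 7, or 20%, against 1.22% of all genes, and all 7 are also in the control's 10. Treated and untreated cells of that number thus shared a raised set.

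In the other libraries at most 3 members were past 2-fold. In DMSO, the sample numbered 1 had 2 members past 2-fold (2.91% of all genes), that numbered 2 had 2 (0.852%), that numbered 3 had 1 (4.55%), that numbered 5 had 2 (1.88%) and that numbered 6 had 1 (1.10%). In tunicamycin, the counts were 1 (3.78%), 2 (0.858%), 1 (2.50%), 3 (2.32%) and 0 (0.712%) for the samples numbered 1, 2, 3, 5 and 6. The 3 members in the tunicamycin sample numbered 5 were BST2, IFIT3 and IFITM1. RSAD2 was past 2-fold in the DMSO samples numbered 2, 3 and 6 and the tunicamycin samples numbered 2 and 3, and never in a sample numbered 4.

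**Figure D4:**
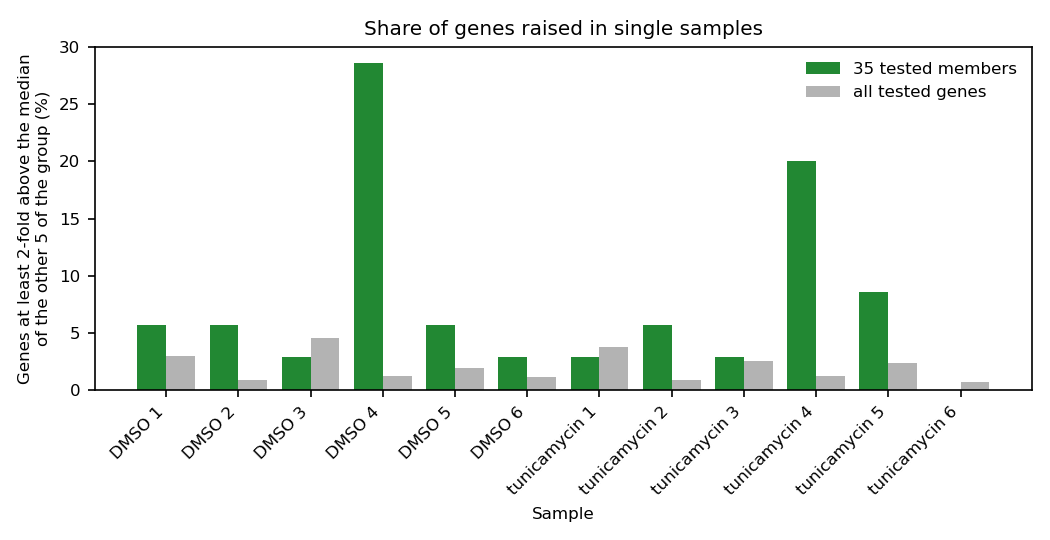
Percent of the 35 tested members and of all tested genes that were at least 2-fold above the median of the other 5 samples of the group, for each of the 12 samples. The bars of the members reach 28.6% in the DMSO sample numbered 4 and 20% in the tunicamycin sample numbered 4, and stay at or below 8.57% in the other samples.

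The tested members were also sorted by which number was highest. The samples numbered 4 were highest in both groups for 12 of the 35 tested members: BST2, DHX58, IFI44L, IFIT1, IFIT2, IFIT3, ISG15, MX1, OAS1, OAS3, SP100 and TRIM22. Those numbered 2 were highest in both groups for 7: EPSTI1, HERC6, IFIH1, IFIT5, PARP9, SAMD9 and USP18. STAT2 was highest in both samples numbered 3 and IRF9 in both numbered 6, and for the other 14 members the number differed between the groups. The matching shares over all genes were not computed. Same-numbered samples deviated together over all genes, so nothing particular to the members is read from these counts.

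Sums of the markers of other cell types were compared beside this result. The 12 leukocyte markers summed to 39.4 CPM in the DMSO sample numbered 4, within the group's 29.7 to 44.4, and to 21.7 CPM in the tunicamycin sample, within its 19.5 to 31.7. Most reads of that sum are of CD68 and LYZ, so it says little of the other leukocyte markers. Among them, CD14 alone was highest of its group in both samples numbered 4, at 1.16 and 0.384 CPM. AIF1 was highest in the tunicamycin one only, at 4.70 CPM. PTPRC was at 0.388 and 0 CPM in these samples, highest in neither group. The 9 endothelial markers summed to 63.1 CPM in the DMSO sample numbered 4, within 11.5 to 85.2, and to 32.0 in the tunicamycin sample, the highest of a range from 4.64. Mesenchymal sums of 861 and 965 CPM lay within 739 to 2400 and 821 to 1437. Heart muscle sums of 356 and 139 CPM lay within 8.07 to 1973 and 8.93 to 891, with the samples numbered 5 highest. The part of these cells in the result was not tested.

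The ligands themselves were close to absent, and the reads of IFNB1 and the lambda genes lay mostly in the samples numbered 4. All 21 interferon genes of the list fell under the count filter, 11 had 0 reads in every library, and the 21 together had 135 reads over the 12 libraries, 94 of them in the samples numbered 4 and 41 in the others. IFNB1, which encodes interferon beta, had 14 reads in the DMSO sample numbered 4, 6 in the tunicamycin sample numbered 4, 2 in that numbered 3 and 0 elsewhere. The lambda genes are closely related, so their reads may be divided among them.

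IFNL1 had 14 reads in the DMSO and 20 in the tunicamycin sample numbered 4, IFNL2 had 8 and 8, and IFNL3 had 6 and 12. The tunicamycin sample numbered 5 had 1, 2 and 5 reads of these genes, and the other libraries had none. Of the 98 reads of IFNB1 and IFNL1 to IFNL3, 88 were in the samples numbered 4. IFNG, the type II interferon, had 0 reads in every library, which allows up to 3 counts in each. Whether the ligands' reads bear on the levels of the members in these samples was not tested.

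**Figure D5:**
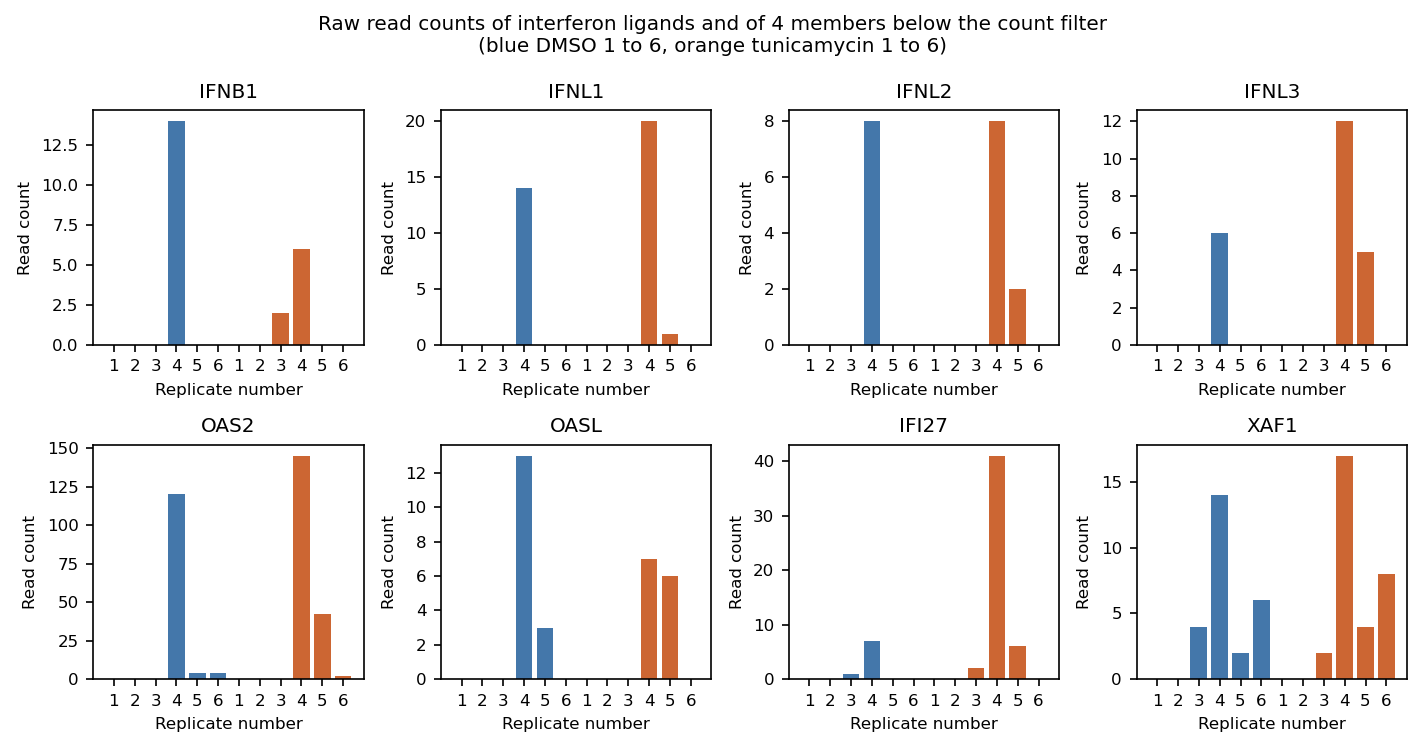
Raw read counts in each of the 12 libraries (blue DMSO, orange tunicamycin, by replicate number) for IFNB1, IFNL1, IFNL2 and IFNL3 and for OAS2, OASL, IFI27 and XAF1, the members under the count filter. The tall bars are those of the samples numbered 4, up to 20 reads for IFNL1 and 145 for OAS2.

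The batches were compared at equal treatment. Batch 2 was higher than batch 1 for IFIT2 and OAS3, 2 of 35 tested members, and 3.62% of all genes passed in either direction. IFIT2 averaged 0.364 CPM in batch 1 and 2.60 CPM in batch 2, a log2 difference of 2.83 ± 0.70 (SE, edgeR quasi-likelihood test, adjusted p = 0.0454, from 0.00153 to 0.702 over its alternatives). OAS3 averaged 5.76 CPM in batch 1 and 13.8 CPM in batch 2, a log2 difference of 1.29 ± 0.33 (adjusted p = 0.0465, from 0.0027 to 0.702). This test counts the samples of a number as independent, although same-numbered samples deviated together. In the DMSO samples alone, 3 against 3, no member passed, and both IFIT2 and OAS3 had an edgeR adjusted p of 0.702. Both calls rest on the samples numbered 4: without that pair no member passed, and the log2 differences were 1.42 for IFIT2 (edgeR adjusted p = 0.231) and 0.70 for OAS3 (edgeR adjusted p = 0.185).

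Leaving out single libraries moved these calls too. IFIT2 was not called without the DMSO samples numbered 2, 3, 4 or 5, nor without the tunicamycin samples numbered 1, 3, 4, 5 or 6. OAS3 was lost in each of those and also without the DMSO samples numbered 1 or 6. BST2 (2.34 ± 0.69), MX1 (1.55 ± 0.46), ISG15 (0.74 ± 0.23) and IFIT3 (1.74 ± 0.59) had the next largest evidence upward in batch 2, with edgeR adjusted p of 0.0711, 0.0714, 0.0799 and 0.0981. RSAD2 was the member furthest the other way, at -1.03 ± 0.37 (edgeR adjusted p = 0.112). Over the 35 members, 22 differences were above 0 and 13 below, with a median of 0.24 against -0.02 over all genes.

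The response to tunicamycin was then compared between the batches with an interaction term. No member passed in edgeR or in DESeq2, and 0% of all genes passed in edgeR. No member had an unadjusted p below 0.05 either. The smallest was that of RSAD2, at 0.0523 before adjustment in edgeR, for a log2 difference between responses of -1.36 ± 0.64. A difference in response between the batches was thus not detected, which does not show that the responses were equal.

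The rest of the pathway was read from lists of 105 genes outside the members, of which 70 were tested. The quasi-likelihood test of edgeR called 6 higher and 1 lower, against 4.56% and 3.29% of all genes. DESeq2 called 9 and 1, against 6.38% and 5.88% of all genes. The median log2 change of the 70 was 0.04, against -0.01 over all genes. With the replicate block 14 were higher and 3 lower, against 8.92% and 8.40% of all genes. Among those added were JAK1, EIF2AK2, IRF2, PLSCR1, DTX3L and APOL6, higher, and IFI16 and LGALS3BP, lower. As these lists were drawn up with earlier results known, their p-values are not independent evidence.

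Of the 6 receptor chains, IFNGR1, the ligand-binding chain of the interferon gamma receptor, rose. It ran from 38.6 through a median of 41.4 to 42.9 CPM in DMSO and from 44.3 through 51.3 to 65.1 CPM in tunicamycin, with no overlap and 6 of 6 pairs higher. The log2 change was 0.36 ± 0.08 (edgeR adjusted p = 0.0181), and it did not pass without the tunicamycin sample numbered 4 or without both samples of that number (edgeR adjusted p = 0.0975, the highest over its alternatives, from 0.00159). The chains of the type I and lambda receptors did not pass in that fit. IFNAR1, a chain of the type I receptor, was higher in 5 of 6 pairs and passed with the replicate block, at 0.34 ± 0.09 (edgeR adjusted p = 0.0167). The median of the 6 was -0.01.

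Of the 5 tested JAK kinases and STATs none passed in the edgeR fit with batch, and 1 was higher and 1 lower at an unadjusted p below 0.05. STAT3, the most abundant of the 5 by CPM in DMSO, averaged 169 ± 56.4 CPM in the controls and 126 ± 14.2 CPM in tunicamycin and was lower in 6 of 6 pairs, at -0.41 ± 0.17 (edgeR adjusted p = 0.162).

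SOCS3, an inhibitor of JAK kinases that STAT3 induces, fell, the only 1 of 8 tested negative regulators to pass. It ran from 4.55 through a median of 7.87 to 10.2 CPM in DMSO and from 0.950 through 2.05 to 3.23 CPM in tunicamycin. Every treated sample lay below every control. The log2 change was -1.94 ± 0.33 (edgeR adjusted p = 0.00242, at most 0.00933 over 18 alternatives), and it was -2.02 in batch 1 and -1.86 in batch 2.

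Of 13 tested sensors and adaptors, 1 rose: RIGI, listed under its older symbol DDX58, which detects RNA with a 5′ triphosphate. It ran from 9.27 through a median of 11.3 to 12.9 CPM in DMSO and from 14.7 through 16.4 to 19.4 CPM in tunicamycin, with no overlap. The log2 change was 0.61 ± 0.13 (edgeR adjusted p = 0.0117, at most 0.0473 over 18 alternatives). The samples numbered 4, at 12.3 and 19.0 CPM, were highest in neither group.

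Among 10 kinases and interferon regulatory factors upstream of interferon, IRF4 rose, a factor best known from lymphocytes and plasma cells. It was a low-count gene, with a total of 200 reads, with means of 0.208 ± 0.158 CPM in the controls and 1.25 ± 0.535 CPM in the treated samples (SD, n = 6 each). The lowest treated sample, at 0.686 CPM, lay above the highest control, at 0.440 CPM. The log2 change was 2.56 ± 0.54 (edgeR adjusted p = 0.00988, at most 0.0455 over 18 alternatives). The leukocyte markers summed to 19.5 to 31.7 CPM in the treated samples and 29.7 to 44.4 CPM in the controls.

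The last list held 28 tested interferon-inducible genes that are not members, and 3 rose: HELZ2, TRIM5 and LAP3. HELZ2, a helicase that acts as a nuclear receptor coactivator, averaged 30.4 ± 7.85 CPM in DMSO and 51.4 ± 11.98 CPM in tunicamycin, with 6 of 6 pairs higher and a log2 change of 0.76 ± 0.16 (edgeR adjusted p = 0.0110). TRIM5, which recognises retroviral capsids, averaged 13.4 ± 3.08 and 24.1 ± 6.32 CPM, also with 6 of 6 pairs higher, at 0.85 ± 0.20 (edgeR adjusted p = 0.0206). TRIM5 was lost without the DMSO sample numbered 5 (edgeR adjusted p = 0.0523) and without both samples numbered 4 (0.0592). LAP3, an aminopeptidase, had a log2 change of 0.28 ± 0.08 (edgeR adjusted p = 0.0437) that did not pass in 12 of 18 alternatives. The median of this list was 0.04, close to that of all genes.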

How the data were processed

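Bulk RNA was sequenced from 12 samples, 6 with DMSO and 6 with tunicamycin. Per the labels' protocols, total RNA was isolated with an RNeasy Mini kit and libraries were made with the NEBNext Ultra II RNA kit. The authors deposited whole-number read counts per gene symbol. The submitters' processing notes name cutadapt 4.4, HISAT2 2.1.0, featureCounts 2.0.6 and the build GRCh38. No source used here gives the annotation or the strand setting, so reads of overlapping genes cannot be told apart. Of the counts from 1 to 20, 60.3% to 64.9% per library were even. If both reads of a pair were counted, which was not tested, the read counts given stand for fewer fragments, and a limit of 3 counts for fewer than 3. Libraries held 17523442 to 28872269 counts. Floors cover counting error only, while the SD and SE values also hold the spread among samples.

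Genes were kept by filterByExpr with batch and treatment in the design (11141 removed). Tests used edgeR 4.0.16 in R 4.3.3 (TMM scaling, quasi-likelihood test, batch and treatment as terms, Benjamini-Hochberg adjustment over 17137 genes, threshold 0.05). CPM values use TMM-scaled totals, and n = 6 per group. The fitting code was tested on simulated data.

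Deviations from the group means correlated between same-numbered samples at 0.422, 0.671, 0.672, 0.391, 0.418 and 0.127 for numbers 1 to 6, all above 0.1. The highest correlation with another number was 0.298, and it exceeded the same-number value for number 6 (0.208). Within batches the same-number values were 0.127 to 0.632, and another number correlated better for numbers 4 (0.252) and 5 (0.272). The numbers were therefore taken to pair the samples, on the data alone, since no label states what they stand for.

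The members and all gene lists were chosen with earlier results of these data known. All members are described, with sample values for those called in a fit or among the 5 most abundant per kilobase. Of the other lists, called genes are named, or the most abundant where none was called. Alternatives were DESeq2 1.42.0, its size factors, no count filter, no batch term, the replicate block, DMSO samples alone for the batch difference, and each library left out. Leaving out both samples numbered 4 was added after seeing the data. Promoter windows and gene names come from RefSeq, and gene positions and exon lengths from GENCODE v29. Some listed genes outside the members are not reported here.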

Additional observations from a re-analysis of the deposited data

Results flagged for a closer look

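In 14 of the 70 sets formed by a tested member and a group, 1 sample lay apart from the other 5, with a gap to its nearest neighbour, relative to the group's range, above Dixon's critical value at the 95% level. For normally distributed values chance gives about 1 in 20 such sets. The ratio was taken on CPM without a log scale, and the share of such sets over all genes was not computed. No excess over chance is therefore read from the count. Of the 14 values, 11 belong to samples numbered 4, and they come from genes that share samples, so they are not independent.

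In the DMSO group, the sample numbered 4 was at 16.7 CPM for MX1 (next 3.56), 17.4 for OAS3 (next 7.17), 4.89 for OAS1 (next 2.38), 5.67 for IFIT2 (next 1.59), 5.38 for IFIT3 (next 2.11) and 5.77 for BST2 (next 1.37). In the tunicamycin group, the sample numbered 4 was at 37.7 CPM for MX1 (next 15.6), 14.9 for IFIT1 (next 8.70), 6.05 for IFIT2 (next 1.44), 20.5 for ISG15 (next 11.4) and 9.69 for BST2 (next 3.06).

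The other 3 values belong to samples numbered 2. The DMSO sample was at 81.3 CPM for IFIH1 (next 40.8) and at 31.5 CPM for EPSTI1 (next 22.1), and the tunicamycin sample was at 13.3 CPM for SAMD9 (next 7.05).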

How the results depend on the processing

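As a description of members chosen with this comparison known, and not as a test of them, IRF9, IFIT1, OAS1 and IFI6 passed with tunicamycin in all 18 alternatives, and MX1 was lost in 2, without a batch term and without the tunicamycin sample numbered 4. No log2 value of a called gene changed sign. The count of members higher, 5, was 8 in DESeq2, 11 with the replicate block and 4 to 7 with 1 library left out; members lower went from 0 to 1 with the block. Pathway genes higher went from 6 to 14 with the block, 3 without both samples numbered 4 and 4 to 8 with 1 library left out, and those lower from 1 to 3 with the block and 1 to 2 with 1 library left out (2 without the tunicamycin sample numbered 2). The pairing by number changed no other call among the members. Members called between batches went from 2 to 7 in DESeq2, to 0 in DMSO samples alone, to 0 without both samples numbered 4, and to 0 to 4 with 1 library left out; the 4 came without the DMSO sample numbered 1. The interaction count was 0 in every alternative. The cause of these shifts was not tested, except that leaving out libraries lowers the number of samples. Members near or under 1 CPM, and the 4 under the filter, are limited by depth.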
